A study of Mus musculus with 96 samples.

Results

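The 9 genes described here make or move bile acids in the liver or control that work: the synthesis enzymes Cyp7a1, Cyp8b1, Cyp27a1 and Cyp7b1, the transporters Abcb11, Abcb4 and Slc10a1, and the nuclear receptors Nr0b2 and Nr1h4. They were chosen by name, and all 9 were found among the 20155 genes with values, of 21990 genes listed. Liver RNA came from C57BL/6N male mice that were bought at 4 weeks of age and kept with free access to food and 12 h of light a day. The mice ate either a chow diet (CD, a LabDiet chow, 13.5% fat) or a high-fat diet (HFD, Research Diets D12492, 60% fat), and 4 mice per diet were examined at each of weeks 4, 8, 12, 16, 20 and 24. That gave 48 liver libraries in 12 groups, each from a different mouse, out of 96 libraries that also cover the islets of these animals. The chow and the high-fat diet differ in ingredients other than fat, and their effects cannot be told apart from that of fat. The hour at which the animals were killed and their feeding state at that moment are not given in the sources used here.

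Bile acids are made from cholesterol in hepatocytes. CYP7A1 opens the classic route and is its rate-limiting step, CYP8B1 sets the share of cholic acid, and CYP27A1 followed by CYP7B1 opens the acidic route. The bile salt export pump, encoded by Abcb11, and the phospholipid floppase encoded by Abcb4 move bile salts and phosphatidylcholine into bile, while the sodium-dependent carrier encoded by Slc10a1 takes bile salts up again from portal blood. Bile acids activate FXR, the receptor encoded by Nr1h4, which raises transcription of Abcb11 and of Nr0b2, and the NR0B2 protein, known as SHP, represses Cyp7a1 and Cyp8b1. Cyp7a1 is also known for a daily rhythm driven by the circadian clock and feeding.

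Cyp8b1 and Nr0b2 are shown with the 250 bases before their RefSeq start, because their known control by nuclear receptors ties the members together. The sequences are from RefSeq on GRCm38.p6, 5′ to 3′ on the gene's strand, and 7 of the 9 members matched an entry. Capitals mark matches to CAAGGNCA, the letters of a site for NR5A2 (an activator of bile acid genes), to AGGTCA, a nuclear receptor half-site, or to TATAAA, the TATA box, each searched on both strands. The NR5A2 letters with T at N would contain the half-site, but none of the matches shown overlap. The window of Cyp8b1 is chr9:121916306-121916555 on the minus strand and that of Nr0b2 is chr4:133553126-133553375 on the plus strand, both outside the transcribed span of the gene.
Cyp8b1: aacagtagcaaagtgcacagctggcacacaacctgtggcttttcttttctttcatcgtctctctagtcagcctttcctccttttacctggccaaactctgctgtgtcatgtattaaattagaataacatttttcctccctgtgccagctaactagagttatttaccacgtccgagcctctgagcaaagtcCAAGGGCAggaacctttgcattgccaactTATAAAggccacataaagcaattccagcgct
Nr0b2: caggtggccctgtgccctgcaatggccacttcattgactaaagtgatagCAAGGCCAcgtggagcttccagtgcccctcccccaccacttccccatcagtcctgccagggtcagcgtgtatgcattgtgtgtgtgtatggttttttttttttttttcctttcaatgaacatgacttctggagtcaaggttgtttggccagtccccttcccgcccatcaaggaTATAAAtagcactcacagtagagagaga
The NR5A2 letters stood at -60 to -53 in Cyp8b1 and at -201 to -194 in Nr0b2, counted back from the start, and these letters occur in 5.53% of 32851 promoter entries of this length. Neither window held the half-site, which 14% of the entries hold. On the other strand it stood at -56 to -51 in the window of Abcb11 and at -214 to -209 in that of Nr1h4. On the gene's strand it stood at -87 to -82 in a window of Slc10a1. These windows, unlike the printed ones, lie wholly or mostly inside the transcribed span of their gene. TATAAA stood at -31 to -26 in Cyp8b1 and at -28 to -23 in Nr0b2, against 12.4% of the entries. Cyp8b1 and Nr0b2 thus had the same pair of matches, in the same order along the strand. Of the 7 members with an entry, these were the only ones with the NR5A2 letters. The shared pair is therefore not a feature of the members in general. A match of letters is a description of the window and no measure of binding.

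Values are FPKM, a density of sequenced fragments corrected for transcript length and library size. Levels were compared between genes and between mice on this scale. The difference between HFD and CD livers over all genes depended on how the libraries were scaled. Comparisons between mice therefore hold for the scaling used. The liver libraries resembled each other, with a median Pearson r with the other livers of 0.958 to 0.979 for each library, and 0 pairs of libraries were identical. Hepatocyte markers were abundant in every library, their summed level running from 38876 to 74751 FPKM in CD mice and from 33028 to 61371 FPKM in HFD mice. Over the 6 weeks 4 of 8 hepatocyte markers were lower and 0 higher in HFD mice, with a median log2 fold change of -0.18. Of the macrophage markers, 5 of 7 were higher, their summed level being 43.3 to 151 FPKM in CD and 57.6 to 264 FPKM in HFD mice. All 6 markers of hepatic stellate cells were higher, with sums of 28.1 to 92.5 FPKM in CD and 50.9 to 143 FPKM in HFD mice. Of the other lists, the 5 endothelial, 5 blood and 5 pancreatic acinar markers had 0 calls over the 6 weeks, and 1 of 3 tested cholangiocyte markers, Spp1, was higher, while Krt19 reached at most 5.77 FPKM in any liver, Krt7 3.27 FPKM, Epcam 2.18 FPKM and Cftr 0.03 FPKM. These counts stand beside 35.8% of all genes higher and 6.78% lower in the same comparison. In whole liver, fewer cells of a type and less RNA per cell cannot be told apart, and the part of these markers in the results below was not tested.

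All 9 members were detected in each of the 48 livers. Slc10a1 was the most abundant, with a median of 362 FPKM, followed by Cyp27a1 at 201 FPKM and Cyp8b1 at 182 FPKM. Cyp7b1 (81.2 FPKM), Abcb4 (80.9 FPKM), Abcb11 (74.0 FPKM) and Nr1h4 (71.9 FPKM) lay close together, with ranges over mice that overlapped broadly. Nr0b2 had a median of 33.3 FPKM and Cyp7a1 the lowest, 16.4 FPKM. The spread between mice also differed by gene. Cyp7a1 ran from 1.40 to 107.9 FPKM and Cyp8b1 from 19.2 to 338 FPKM, whereas Cyp27a1 stayed between 148 and 298 FPKM and Nr1h4 between 47.8 and 111 FPKM.

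**Figure D1:**
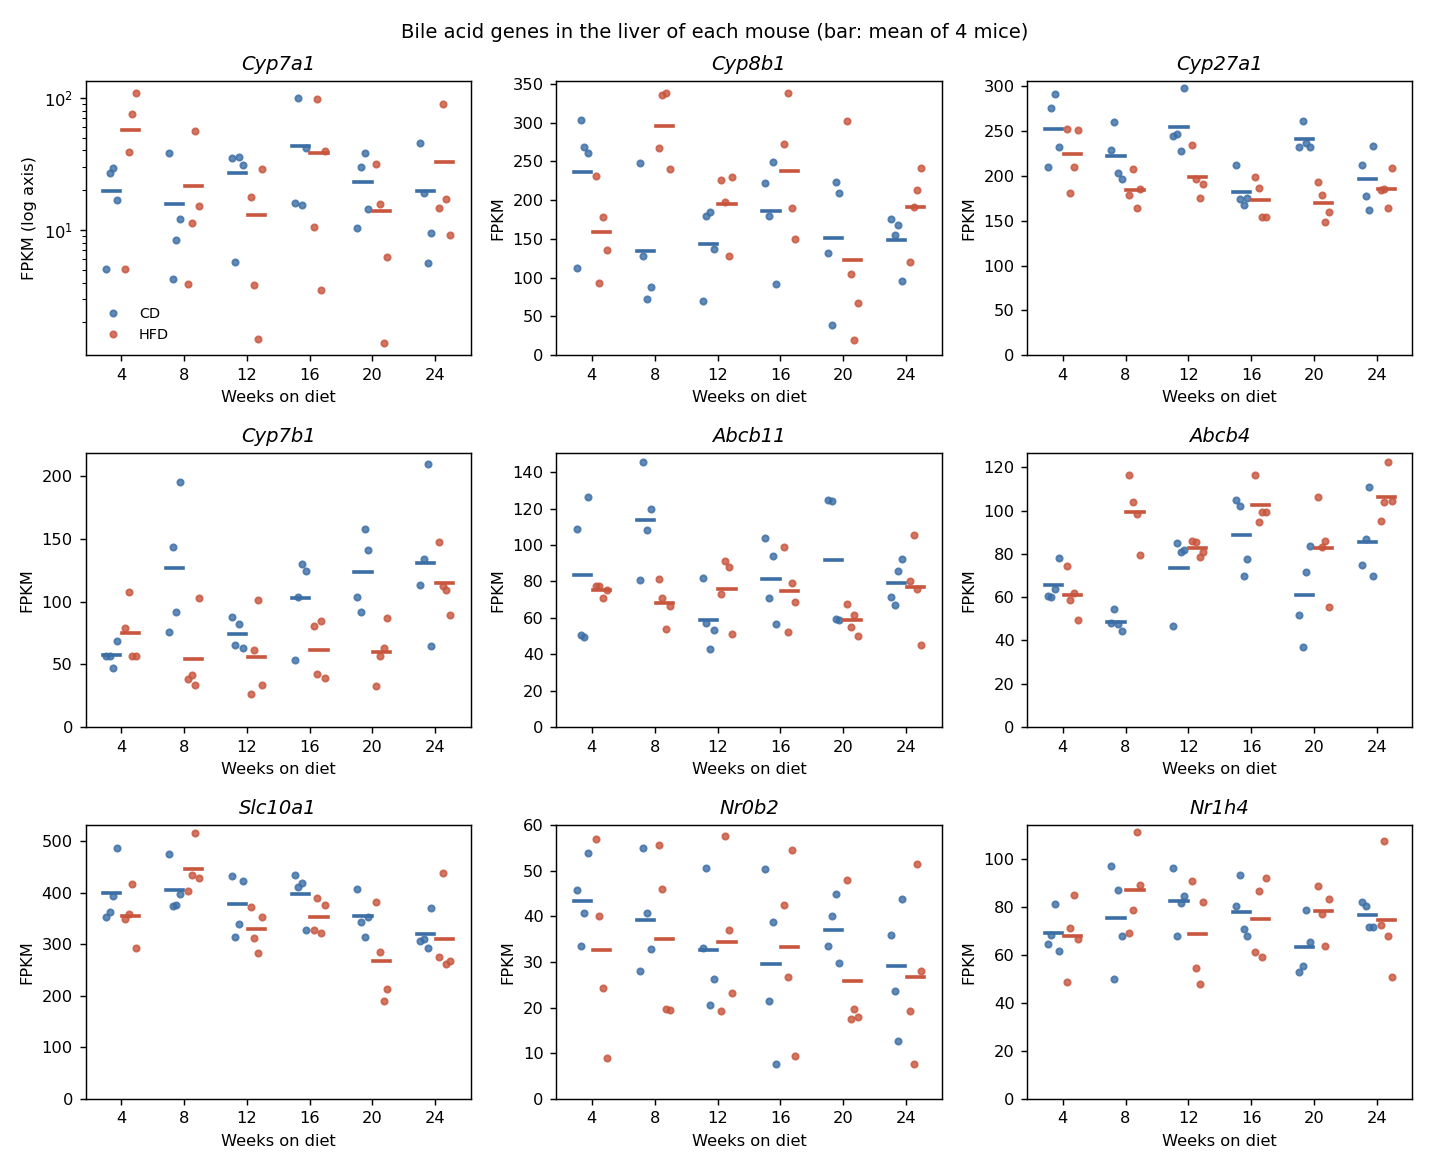
FPKM of the 9 bile acid genes in the liver of each mouse (points) against weeks on diet, CD in blue and HFD in red, with a bar at the mean of 4 mice and a log axis for Cyp7a1. Abcb4 separates the diets at week 8 (44.5 to 54.5 against 79.5 to 116 FPKM) and Cyp27a1 at week 20, while Cyp7a1 spreads from 1.40 to 107.9 FPKM with the diets intermingled.

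The question was which of these genes differ between HFD and CD livers, at each week and over the whole course. On average over the 6 weeks, 1 member was higher and 2 were lower in HFD liver by limma on log2(FPKM + 1) at an adjusted p under 0.05. Abcb4 was higher by 0.35 (SE 0.078, 95% confidence interval 0.19 to 0.51, adjusted p = 0.00036 by limma), Cyp27a1 was lower with a log2 fold change of -0.24 (SE 0.051, -0.34 to -0.14, adjusted p = 0.00023), and Cyp7b1 was lower with -0.57 (SE 0.15, -0.88 to -0.26, adjusted p = 0.0028). Among all 10879 genes tested, 35.8% were higher and 6.78% lower in this comparison, so that 1 of 9 higher is under the background and 2 of 9 lower is above it. The median log2 fold change of the 9 members was -0.19, beside 0.077 over all genes tested.

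The background itself depends on the scaling. With the libraries rescaled by their median ratio (factors of 0.875 to 1.15), the median over all genes moved from 0.0765 to -0.0197, a shift of -0.0962, and by -0.104 at week 4, -0.133 at week 12 and -0.116 at week 16. The share of called genes that were higher went from 84.1% to 45.5%, and of all genes 17.9% were then higher and 21.4% lower, the background for every scaled count of this mean effect. Abcb4 stayed higher (0.24, adjusted p = 0.015) and Cyp27a1 (-0.36, adjusted p = 1.0e-05) and Cyp7b1 (-0.69, adjusted p = 0.00098) stayed lower, and Slc10a1 (-0.27, adjusted p = 0.00072) and Abcb11 (-0.31, adjusted p = 0.026) joined the lower genes, by limma. That made 4 of 9 members lower and 1 of 9 higher, beside 21.4% and 17.9% of all genes. No member changed its direction under this scaling among those called in either fit.

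Week by week, calls were few. At week 8 Abcb4 was higher and Abcb11 lower, against 6.17% of all genes higher and 1.33% lower. In that week the hepatocyte markers Cps1 (-0.69, adjusted p = 0.025 by limma) and Fgb (-0.50, adjusted p = 0.011) and the blood marker Alas2 (-0.56, adjusted p = 0.039) were also lower, and the 5 blood markers had a median of -1.57, with sums of 443 to 2040 FPKM in CD and 177 to 890 FPKM in HFD livers. At week 20 Cyp27a1 was lower, against 1.73% of genes higher and 0.746% lower. There Cps1 was lower as well (-1.01, adjusted p = 0.027), and the macrophage markers Adgre1, Cd68 and Cd5l were higher. At week 4 (0.0405% higher, 0.0101% lower), week 12 (9.42% higher, 1.22% lower), week 16 (6.74% higher, 0.682% lower) and week 24 (0.65% higher, 0.187% lower) limma called 0 members, and 0, 1, 0 and 0 members had an unadjusted p under 0.05, both with and without the variance trend. Of the markers in those 4 weeks, the acinar gene Cela1 was higher at week 4 (1.16, adjusted p = 0.038), 3 macrophage and stellate genes were higher at week 12, and 5 macrophage and stellate genes and Spp1 were higher and Cps1 lower at week 16. The part of these markers in the weekly values was not tested.

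**Figure D2:**
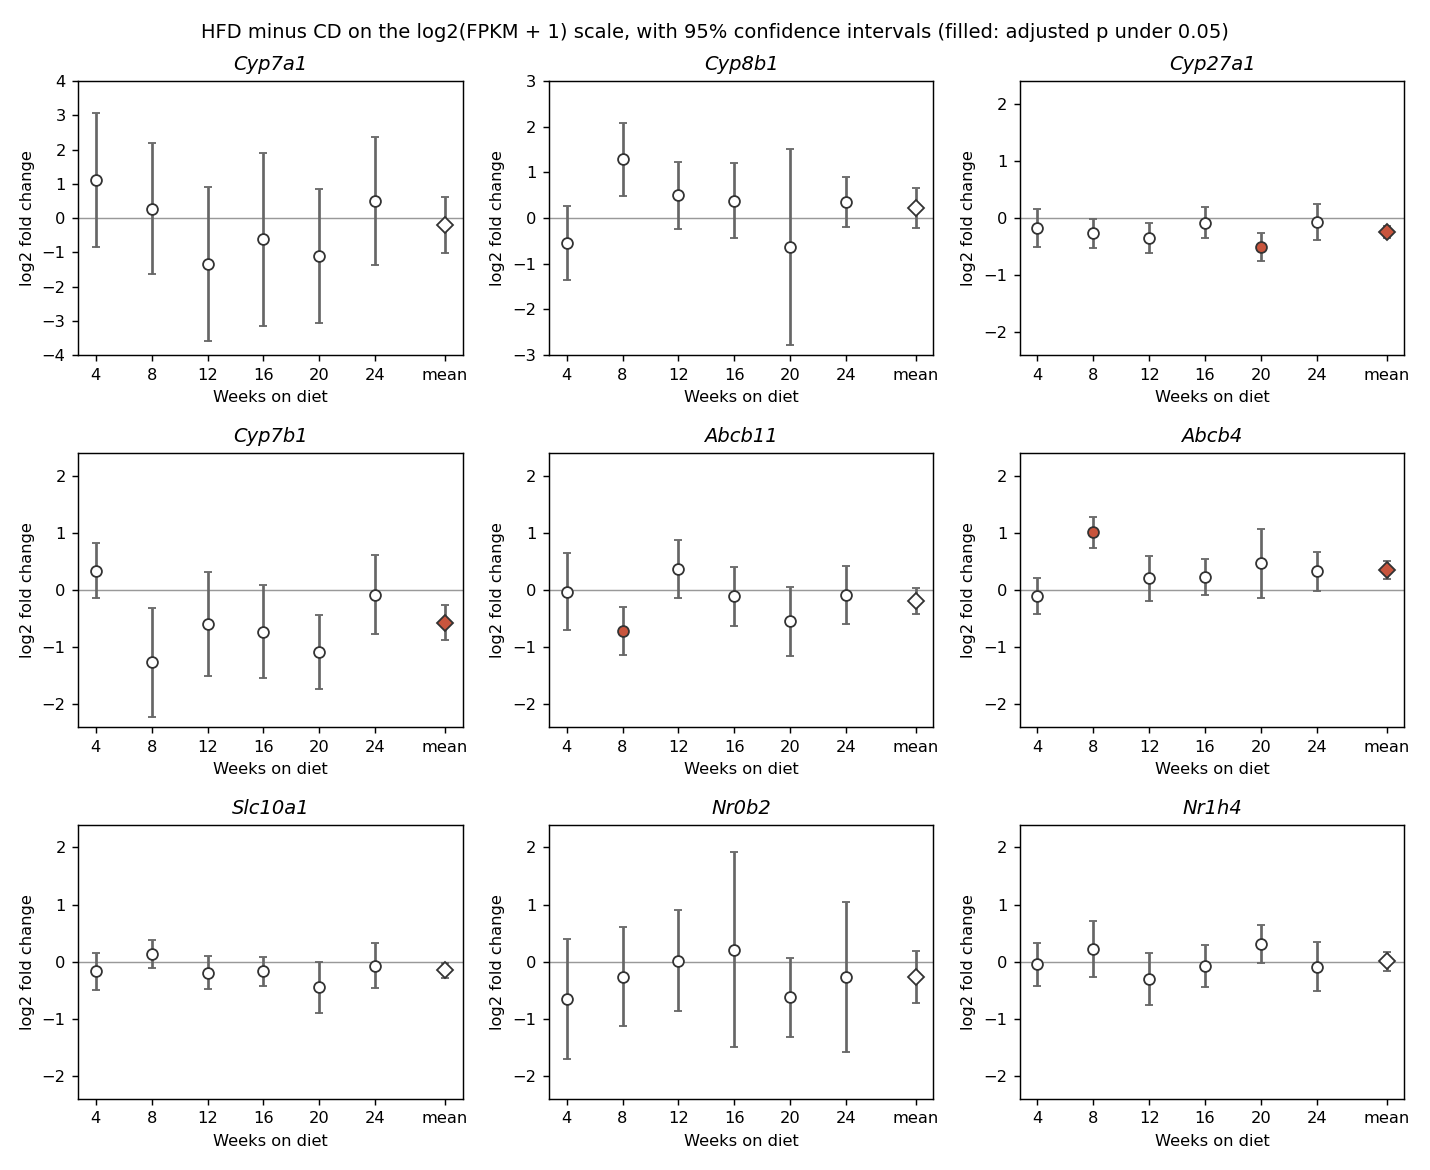
Log2 fold change of HFD minus CD on the log2(FPKM + 1) scale (vertical axis) for each member at each week (circles, 4 against 4 mice) and for the mean of the 6 weeks (diamonds), with 95% confidence intervals and filled symbols at an adjusted p under 0.05. Filled circles appear for Abcb4 and Abcb11 at week 8 and for Cyp27a1 at week 20, and filled diamonds for Abcb4 (0.35), Cyp27a1 (-0.24) and Cyp7b1 (-0.57). Vertical scales differ for Cyp7a1 and Cyp8b1.

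Abcb4 (Entrez gene 18670, chr5:8893598-8959226, plus strand, on GRCm38 as for the positions below), which puts phosphatidylcholine into bile, showed the clearest difference. At week 8 the 4 CD livers had 44.5, 47.5, 48.3 and 54.5 FPKM and the 4 HFD livers 79.5, 98.3, 103.9 and 116 FPKM. Every HFD mouse lay above every CD mouse. How many of all genes separate the groups in this way was not counted, for this or the comparisons below. The means were 48.7 ± 4.19 and 99.5 ± 15.4 FPKM (SD, n = 4 each), a log2 fold change of 1.01 (SE 0.12, adjusted p = 0.0036 by limma). This call held with each of the 8 mice left out in turn, with values of 0.93 to 1.11. Mean Abcb4 in CD mice was 65.7, 48.7, 73.6, 88.6, 61.1 and 85.6 FPKM at weeks 4, 8, 12, 16, 20 and 24, and in HFD mice 61.2, 99.5, 82.7, 102.4, 82.8 and 106.5 FPKM, with SD between 3.47 and 20.9 FPKM. HFD mice had the higher mean log2 level in 5 of 6 weeks, week 4 being the exception, and outside week 8 the log2 fold changes were -0.11 to 0.46 and none was called.

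Cyp27a1 (104086, chr1:74713146-74737897, plus strand), a mitochondrial sterol hydroxylase, was lower in HFD liver in 6 of 6 weeks. At week 20 CD livers had 232, 232, 237 and 261 FPKM and HFD livers 148, 159.97, 178 and 193 FPKM. The groups did not overlap. The means were 241 ± 13.9 and 169.8 ± 19.7 FPKM (SD, n = 4 each), a log2 fold change of -0.51 (SE 0.11, adjusted p = 0.043 by limma). This weekly call was lost with any of 6 of the 8 mice left out (CD501, CD502, CD505, CD507, HFD516 or HFD517), with adjusted p of 0.085 to 0.12 and log2 fold changes of -0.53 to -0.44. Weekly means were 252, 222, 254, 182, 241 and 196 FPKM in CD and 224, 184, 199, 173, 169.8 and 186 FPKM in HFD mice from week 4 to week 24, with SD between 13.9 and 37.8 FPKM. In the other 5 weeks the lowest adjusted p was 0.076, at week 12 (log2 fold change -0.35), and the median ratio scaling brought that week to 0.037 (-0.51), where 5.27% of all genes were lower.

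Cyp7b1 (13123, chr3:18071944-18243890, minus strand), the oxysterol hydroxylase that follows CYP27A1, was lower in 5 of 6 weeks. At week 8 CD livers had 75.6, 92.05, 143 and 195 FPKM, and 3 HFD livers had 33.3, 38.5 and 41.5 FPKM while the fourth, mouse HFD217, had 102.99 FPKM. At week 20 the CD livers had 91.8, 103.96, 141 and 158 FPKM and the HFD livers 32.7, 56.9, 62.6 and 87.2 FPKM. The log2 fold changes were -1.27 at week 8 (SE 0.41, adjusted p = 0.11 by limma) and -1.08 at week 20 (SE 0.29, adjusted p = 0.094), and neither passed. Without HFD217 the week 8 value was -1.63 (adjusted p = 0.014), and without HFD518 the week 20 value was -1.29 (adjusted p = 0.028). Leaving out any other mouse of those weeks gave no call. With all 12 groups in one fit, week 8 also passed (adjusted p = 0.031). Mean levels at weeks 4, 8, 12, 20 and 24 were 57.3, 127, 74.3, 124 and 130.3 FPKM in CD and 74.8, 54.1, 55.4, 59.9 and 114.5 FPKM in HFD mice, and at week 16 the log2 fold change was -0.74 (adjusted p = 0.27). SD of the 12 groups lay between 8.87 and 60.2 FPKM, and HFD was the higher group at week 4 only.

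Abcb11 (27413, chr2:69238282-69342843, minus strand), the bile salt export pump, had 81.0, 108, 119.9 and 146 FPKM in CD livers at week 8 and 53.6, 66.6, 70.7 and 81.1 FPKM in HFD livers. A single pair of values, 81.07 FPKM in HFD and 81.04 FPKM in CD, made the groups overlap. The means of 113.7 ± 26.8 and 68.0 ± 11.4 FPKM (SD, n = 4 each) gave a log2 fold change of -0.72 (SE 0.18, adjusted p = 0.0497 by limma). The call sat at the threshold: it was lost in 7 of 8 fits with 1 mouse left out (all but CD203, adjusted p of 0.066 to 0.12) and under 4 of 5 other settings. Weekly means ran through 83.8, 113.7, 58.8, 81.3, 91.7 and 79.2 FPKM in CD and 75.2, 68.0, 75.7, 74.9, 58.6 and 76.7 FPKM in HFD mice, with SD between 3.18 and 39.6 FPKM. The mean log2 fold change over the 6 weeks was -0.19 (95% confidence interval -0.42 to 0.04, adjusted p = 0.18), with HFD higher at week 12 only.

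Cyp8b1 (13124, chr9:121914356-121916305, minus strand), the hydroxylase specific to cholic acid, had 72.2, 88.0, 128 and 248 FPKM in CD livers and 241, 268, 336 and 338 FPKM in HFD livers at week 8. All HFD livers were above 3 of the 4 CD livers, and mouse CD203 reached into the HFD range. The log2 fold change was 1.29 (SE 0.35, 95% confidence interval 0.49 to 2.09, adjusted p = 0.064 by limma), and without CD203 it was 1.64 (adjusted p = 0.0084). Omitting any other mouse of that week gave no call. In the other weeks the log2 fold changes lay between -0.63 and 0.51. Mean Cyp8b1 was 236, 134, 143, 185, 150.5 and 149 FPKM in CD and 159, 295, 195, 237, 123 and 191 FPKM in HFD mice, with SD between 36.6 and 124 FPKM. Over the 6 weeks the value was 0.23 (-0.21 to 0.66, adjusted p = 0.42), and HFD was higher in 4 of 6 weeks.

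Cyp7a1 (13122, chr4:6262194-6275631, minus strand) varied so widely within each group that no weekly difference could be resolved. At week 4 CD livers had 5.10, 16.9, 27.04 and 29.3 FPKM and HFD livers 5.08, 38.9, 75.3 and 107.9 FPKM, and at week 20 CD livers had 10.3, 14.4, 29.7 and 37.9 FPKM and HFD livers 1.40, 6.29, 15.8 and 31.7 FPKM. The lowest mouse of the HFD group thus lay below or level with the lowest CD mouse at both times, and the groups overlapped in all 6 weeks. Weekly log2 fold changes went from -1.35 at week 12 to 1.11 at week 4, with SE of 0.81 to 1.07. Mean levels were 19.6, 15.8, 26.9, 43.1, 23.1 and 19.8 FPKM in CD and 56.8, 21.6, 13.0, 37.9, 13.8 and 32.5 FPKM in HFD mice, with SD between 11.05 and 44.5 FPKM. The average of -0.20 had a 95% confidence interval of -1.02 to 0.62 (adjusted p = 0.73 by limma), which leaves room for a change in either direction. The ratio of Cyp8b1 to Cyp7a1 in single livers ran from 1.26 to 86.1 in HFD and from 1.32 to 31.2 in CD mice.

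Slc10a1 (20493, chr12:80953185-80968700, minus strand), the uptake carrier, was steadier. Its means were 399, 406, 378, 399, 354 and 319.9 FPKM in CD and 355, 446, 330.1, 354, 268 and 311 FPKM in HFD mice, with SD between 34.3 and 86.6 FPKM. HFD was the higher group at week 8 only, and the average log2 fold change was -0.15 (95% confidence interval -0.29 to -0.02, adjusted p = 0.058 by limma). With 1 mouse left out, 8 of 48 fits called it lower (without CD101, CD306, CD407, HFD114, HFD213, HFD313, HFD511 or HFD614), with values over all 48 of -0.18 to -0.13, as did the median ratio scaling.

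Nr0b2 (23957, chr4:133553376-133556686, plus strand), the repressor SHP, ranged from 7.52 to 57.6 FPKM. Its group means spanned 29.01 to 43.4 FPKM on chow and 25.8 to 35.1 FPKM on the high-fat diet, with SD between 6.68 and 20.6 FPKM. At week 20 CD livers had 29.9, 33.5, 40.1 and 44.8 FPKM, and 3 HFD livers had 17.5, 17.9 and 19.8 FPKM, all below the CD livers, while mouse HFD511 had 47.9 FPKM. The week 20 log2 fold change was -0.62 (SE 0.30, adjusted p = 0.38 by limma), and -0.96 (adjusted p = 0.014) without HFD511. That was the only mouse of the week whose omission gave a call. The average over the 6 weeks was -0.26 (95% confidence interval -0.72 to 0.19, adjusted p = 0.36).

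Nr1h4 (20186, chr10:89454234-89533646, minus strand), the receptor FXR itself, had group means of 63.0 to 82.4 FPKM on chow and 67.7 to 86.9 FPKM on the high-fat diet, with SD between 5.58 and 23.8 FPKM. Weekly log2 fold changes were -0.30 to 0.31. Its average was 0.0057 with a 95% confidence interval of -0.16 to 0.18 (adjusted p = 0.96 by limma), so that the interval covers changes of up to 0.18 on the log2 scale.

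Whether the HFD effect on these genes changed with time was tested in one limma fit of all 48 livers. The interaction of diet and week called 0 of 9 members, against 1.46% of all genes, with 2 members at an unadjusted p under 0.05. Abcb4 had the lowest adjusted p, 0.14, which became 0.047 without mouse CD304 and passed with no other mouse left out. The contrast of early weeks (4, 8 and 12) with late weeks (16, 20 and 24) also called 0 of 9 members, against 0.175% of genes, with 0 at an unadjusted p under 0.05. Without the variance trend both tests gave the same counts. In CD mice alone, 2 of 9 members differed between weeks, Abcb4 (adjusted p = 0.0028) and Cyp27a1 (adjusted p = 0.0045), against 55% of all genes. Without the variance trend 3 of 9 passed. In HFD mice alone 2 of 9 members passed, and 4 of 9 without the trend. The share of all genes was not counted for these further results. On chow Abcb4 was lowest at week 8 and highest at week 16, and Cyp27a1 was lowest at week 16 and highest at week 12. Age, week and the day of killing cannot be told apart in comparisons between weeks.

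Other genes of the pathway were followed on the mean of the 6 weeks. Among 12 genes of side-chain shortening, conjugation and alternative synthesis, 11 were tested, and 6 were higher and 2 lower (median log2 fold change 0.25, beside 0.077 over all genes, of which 35.8% were higher and 6.78% lower). The peroxisomal genes Hsd17b4 (0.47, adjusted p = 1.7e-09 by limma), Scp2 (0.36) and Acox2 (0.25) were higher, as were Hsd3b7 (0.26), Cyp39a1 (0.52) and Cyp46a1 (0.34). The first of these stood at 156 FPKM in CD and 216 FPKM in HFD livers on average. Slc27a5, the bile acid CoA ligase, was lower (-0.24), and so was Cyp2c70, the enzyme behind mouse muricholic acids, with -0.98 (SE 0.17, adjusted p = 1.2e-05), from a mean of 283 FPKM in CD to 130.3 FPKM in HFD livers. The weekly values of Cyp2c70 were uneven. They ran from -2.315 at week 8, the only week called (adjusted p = 0.01 by limma), to 0.13 at week 12 (155 FPKM in CD, 146 FPKM in HFD). The interaction of diet and week had an adjusted p of 0.065 by limma. Ch25h did not reach the minimum for testing.

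Of 13 further transporters 11 were tested, and 4 were higher and 1 lower (median 0.13), shares close to the 35.8% and 6.78% of all genes. Slc10a2 (0.33), Abcc3 (0.31), Slco1b2 (0.29) and Slco2b1 (0.16) were higher, and Slco1a1, a sinusoidal uptake carrier, was lower (-0.70, adjusted p = 0.021 by limma). The decrease of Slco1a1 was not uniform. At week 4 it was higher in HFD livers, with means of 33.8 FPKM in CD and 64.4 FPKM in HFD (log2 fold change 0.999, adjusted p = 0.27). It was lower in all later weeks, and no single week was called. Under the median ratio scaling 0 of these 11 were called higher and 1 lower, beside 17.9% and 21.4% of all genes. Of 12 further regulators 10 were tested, and 1 was higher and 2 lower (median -0.045), beside the same 35.8% and 6.78%. Fgfr4 (-0.27, adjusted p = 0.00031) and Klb (-0.30, adjusted p = 0.0041), the hepatic receptor and co-receptor for the ileal hormone FGF15, were lower in 6 of 6 weeks, and Nr1h3, which encodes LXR-alpha, was higher (0.16). Fgf15 was listed at 0 in all livers. With the scaling, which raised the lower share of all genes from 6.78% to 21.4%, 5 regulators were lower, Fgfr4, Klb, Hnf4a, Nr1i2 and Mafg, and Nr1h3 was no longer called (0.049, adjusted p = 0.36). In the synthesis list the scaling left 4 higher (Hsd17b4, Scp2, Cyp39a1 and Cyp46a1) and 4 lower (Cyp2c70, Slc27a5, Akr1d1 and Amacr) of 11, against the same scaled background.

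**Figure D3:**
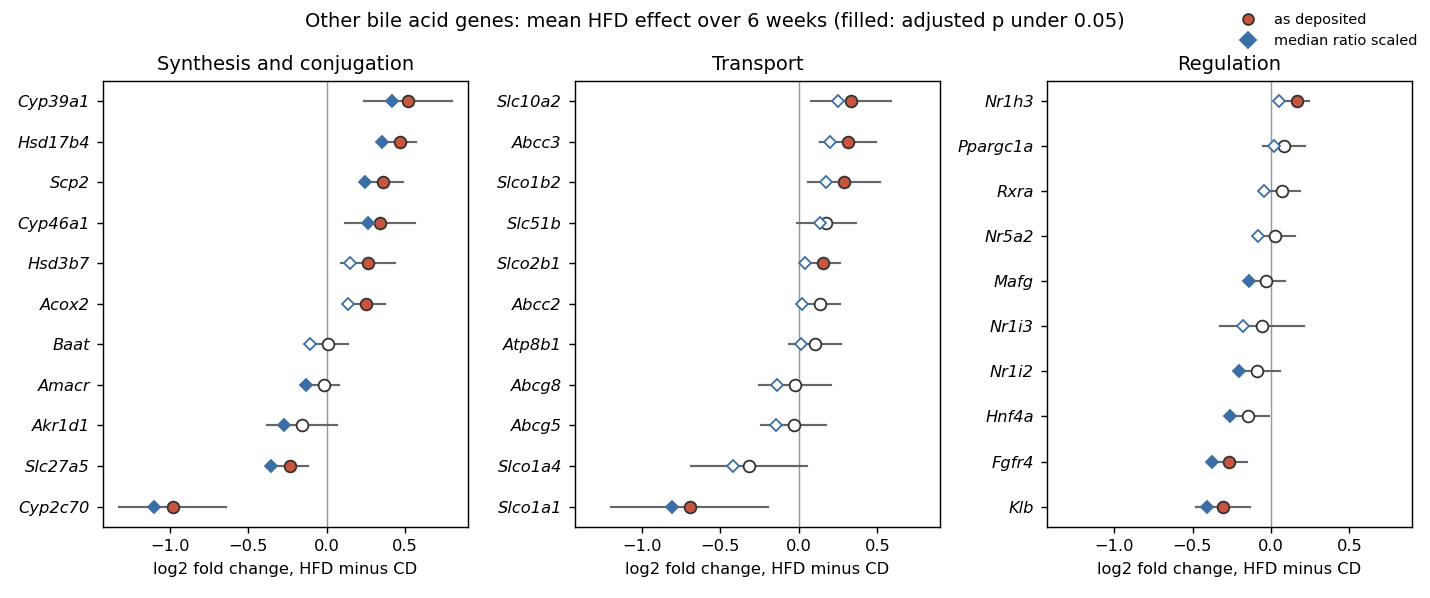
Mean log2 fold change of HFD minus CD over the 6 weeks (horizontal axis) for the tested genes of the synthesis, transport and regulation lists, with circles and 95% confidence intervals for the values as deposited, diamonds for the same after median ratio scaling, and filled symbols at an adjusted p under 0.05. Cyp2c70 (-0.98) and Slco1a1 (-0.70) lie farthest to the left, and no transporter keeps a call as higher after scaling.

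Mice of the same diet and week were then compared with each other, to see which members varied together. Each group's mean was subtracted from log2(FPKM + 1), and the 36 pairs of members were tested over 48 mice by permutation within groups (100000 shuffles, two-sided, smallest possible p 1e-05). After adjustment over the 36 pairs, 8 passed by Pearson's r, 4 positive and 4 negative, and 12 by Spearman's rho. The share that would pass among pairs of other liver genes was not examined. The strongest member pair was Cyp7a1 with Nr1h4, with r = 0.81 and rho = 0.82 (raw permutation p = 1e-05 and adjusted p = 0.00036 for both). In what follows, "it" is this pair. The r of this pair was 0.66 among CD mice and 0.88 among HFD mice, and 0.79 without the 2 mice farthest from the median of Cyp7a1. A mouse with high Cyp7a1 thus also had high Nr1h4 for its group, while neither gene's difference by diet passed the test.

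Slc10a1 varied with both of these, with r = 0.54 for Nr1h4 (rho 0.50, permutation p = 0.00025, adjusted p = 0.0045) and r = 0.53 for Cyp7a1 (rho 0.50, permutation p = 0.00088, adjusted p = 0.011). The second was 0.17 within CD and 0.69 within HFD, a difference that was not tested. Nr0b2 ran against Cyp7a1 (r = -0.49, rho = -0.49, permutation p = 0.0047, adjusted p = 0.026) and against Nr1h4 (r = -0.45, rho = -0.45, permutation p = 0.0071, adjusted p = 0.032). Within CD these were -0.30 and -0.097, and within HFD -0.58 and -0.63. Without the 2 farthest mice they were -0.42 and -0.55. Nr0b2 and Cyp8b1 had r = 0.20 (adjusted permutation p = 0.25) and rho = 0.15 (adjusted permutation p = 0.49). The part of the known regulation in these values was not tested.

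Abcb4 and Cyp8b1, the members with the largest positive log2 fold changes at week 8, also varied together within groups (r = 0.54, rho = 0.51, permutation p = 0.0050, adjusted p = 0.026, 0.56 without the 2 farthest mice). The acidic-route enzymes Cyp27a1 and Cyp7b1, both lower in HFD liver on average, moved in opposite directions between mice of a group (r = -0.48, rho = -0.44, permutation p = 0.0029, adjusted p = 0.021, -0.40 without the 2 farthest). Under the median ratio scaling that pair had r = -0.17 (adjusted p = 0.46). Cyp7b1 and Slc10a1 also ran against each other (r = -0.44, rho = -0.43, permutation p = 0.0024, adjusted p = 0.021, -0.43 without the 2 farthest), and at -0.30 (adjusted p = 0.14) they did not pass under that scaling. The other passing pairs did so by rho only. Abcb11 and Nr0b2, both FXR targets, had r = 0.30 (adjusted permutation p = 0.091) and rho = 0.40 (adjusted permutation p = 0.023). Abcb11 ran against Nr1h4, with r = -0.30 (adjusted permutation p = 0.15) and rho = -0.41 (adjusted permutation p = 0.029). With Cyp7a1, Abcb11 had r = -0.36 (adjusted permutation p = 0.051) and rho = -0.43 (adjusted permutation p = 0.022). Cyp7a1 and Cyp7b1 had r = -0.39 (adjusted permutation p = 0.086) and rho = -0.42 (adjusted permutation p = 0.042).

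**Figure D4:**
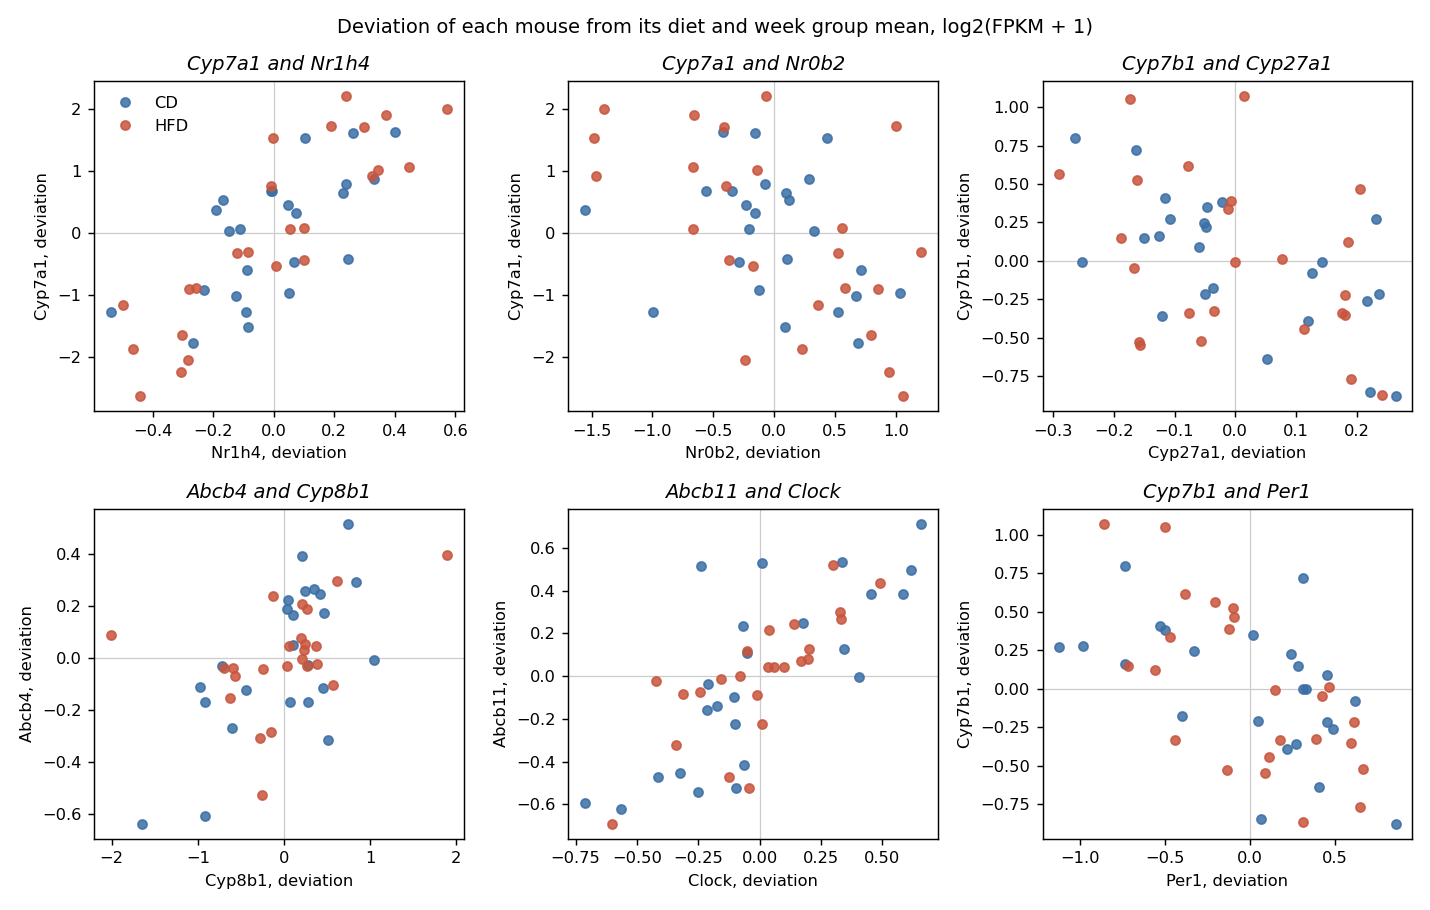
Deviation of each of 48 mice from the mean of its diet and week group on the log2(FPKM + 1) scale, for 6 pairs of genes, CD in blue and HFD in red. Cyp7a1 climbs with Nr1h4 (r = 0.81) and declines with Nr0b2 (r = -0.49), Abcb11 climbs with Clock (r = 0.76), and Cyp7b1 declines with Per1 (r = -0.60).

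Because Cyp7a1 is known for its daily rhythm, the members were also set against 12 clock genes in the same way, a choice made after the member pairs had been seen. Of 108 pairs, 30 passed by Pearson's r and 28 by Spearman's rho after adjustment over the 108, and the 30 were unevenly spread: 9 with Cyp7a1, 9 with Nr1h4, 8 with Abcb11, 2 with Nr0b2, 1 each with Cyp27a1 and Cyp7b1, and 0 with Cyp8b1, Abcb4 and Slc10a1. How many other liver genes would pass with these clock genes was not examined, so the counts cannot show a tie particular to the members. The clock genes were not set against each other, so the pairs of a member need not be separate relations. Cyp7a1 and Nr1h4 each had 7 positive and 2 negative pairs, the negative ones being with Arntl and Clock, which encode the activating pair of the clock. Abcb11 had the opposite sign to Cyp7a1 for each of the 12 clock genes, with r = 0.76 for Clock (rho 0.77, permutation p = 2e-05, adjusted p = 0.0022, 0.71 without the 2 farthest mice), 0.59 for Arntl and -0.58 for Cry2. Cyp7a1 and Abcb11 both passed with Clock, Arntl, Cry2, Tef, Dbp, Ciart and Per2 only. With Cry1 (0.051 for Cyp7a1, -0.18 for Abcb11) and Bhlhe41 (-0.092 and 0.14) neither passed, so those signs carry little weight. Cyp7b1 and Per1 had r = -0.60 (rho -0.59, permutation p = 0.00022, adjusted p = 0.0043, -0.55 without the 2 farthest).

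At Per3, another clock gene, the mice were cut into 17 with low and 31 with high values for their group. The cut was set at the largest gap between mice, leaving out the ends, and such a cut can be made for any gene. Whether Per3 truly forms separate clusters was not tested, and no r over all mice is given for it. Within the low and the high part Cyp7a1 and Nr1h4 had r = 0.60 and 0.72, Abcb11 and Clock 0.78 and 0.62, and Cyp7b1 and Per1 -0.53 and -0.56. Cyp7a1 and Tef, another clock output gene, had r = 0.56 over all mice and -0.081 and -0.13 within the parts. Nr1h4 and Tef had 0.53 over all mice and 0.19 and 0.031 within them. Cyp7a1 and Nr0b2 had -0.18 and -0.43. Other pairs that passed over all mice were also smaller within a part, with 0.13 and 0.60 for Slc10a1 and Nr1h4, 0.26 and 0.73 for Cyp8b1 and Abcb4, -0.34 and -0.32 for Nr0b2 and Nr1h4, and -0.27 and -0.39 for Abcb11 and Cry2. The remaining passing member pairs had 0.46 and 0.48 (Cyp7a1 and Slc10a1), -0.31 and -0.43 (Cyp7b1 and Slc10a1), and -0.42 and -0.51 (Cyp27a1 and Cyp7b1). The parts were drawn from the data and are given as values with no test. A cut at a clock gene can narrow the range of other clock genes within a part. An r that shrinks or stays within the parts therefore cannot show that a relation is lost or holds. In the clock list the mean HFD effect called 1 of 13 tested genes, Per2 (0.41, adjusted p = 0.012 by limma), against 35.8% of all genes higher, and 0 after scaling in that direction, while Per1 was lower after scaling.

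**Figure D5:**
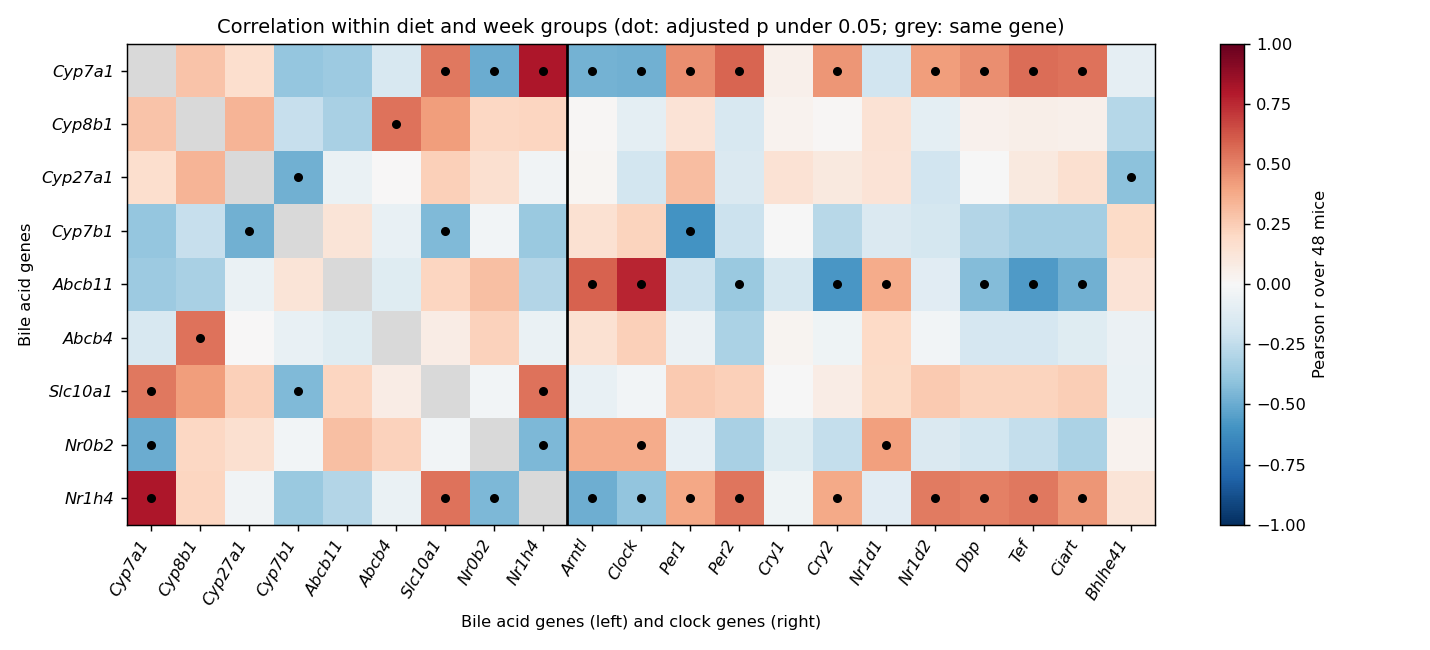
Pearson r over 48 mice after subtraction of group means, for each bile acid gene (rows) with the other members and with 12 clock genes (columns), red for positive and blue for negative, with dots at an adjusted p under 0.05. Rows for Cyp7a1 and Nr1h4 resemble each other (r = 0.81 between the genes), and the row of Abcb11 has the opposite colour to Cyp7a1 at each of the 12 clock genes. Some of these values are small and carry no dot.

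Of all 10879 genes, some of those most alike in these deviations were named for each member, as a description with no test. Cyp7a1 was most like Nr1h4 (0.81), Gpt2 (0.80), an alanine aminotransferase, and Surf2 (0.78), and Nr1h4 was most like Surf2 (0.84), Bnip3 (0.82) and Cyp7a1 (0.81). Cyp8b1 had Cyp4a10 (0.71), a fatty acid hydroxylase, and Eif1 (0.70) among its closest. Abcb4 had Tmem56 (0.83), Hadhb (0.82), a subunit of the mitochondrial trifunctional protein of fatty acid oxidation, and Hsdl2 (0.79). Cyp27a1 had Slc27a5 (0.65), Tm2d2 (0.65) and Gnmt (0.63). Cyp7b1 had Serpine2 (0.90), Mup11 (0.85) and Capn8 (0.84), where Mup11 belongs to a family of near-identical genes whose reads may be split uncertainly. Abcb11 had Cd164 (0.84), Rnft1 (0.83) and Ubxn4 (0.82), Slc10a1 had Plscr2 (0.83), Akr1d1 (0.82) and Slc47a1 (0.76), and Nr0b2 had Gucd1 (0.68), Sgpl1 (0.67) and Slc35d2 (0.67).

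In the islets of the same mice the members were at far lower levels, and liver exceeded islet in 48 of 48 mice for each of the 9 genes. Abcb4 (4.08 to 9.36 FPKM), Nr1h4 (3.88 to 9.57 FPKM) and Cyp7b1 (1.68 to 3.66 FPKM) were nevertheless above 1 FPKM in every islet library. Cyp27a1 ran from 0.22 to 1.66 FPKM, and Cyp7a1, Cyp8b1, Abcb11, Slc10a1 and Nr0b2 stayed at or below 0.42 FPKM.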

How the data were processed

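Poly(A) RNA of liver pieces was copied with random hexamers and sequenced on a BGISEQ-500 instrument. The FPKM values deposited by the authors, 1 column per library with 2 decimals, were used as they stand (96 columns, all matched to a sample). The submitters' processing notes name HISAT2 2.0.4, Bowtie2 2.2.5, RSEM 1.1.12, DESeq2 and the build GRCm38.p5, with no role. The table also holds the authors' group means, log2 ratios and DEGseq p- and q-values, which were not used. It holds no read counts, so the depth behind single values is unknown and no counting interval is given.

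Samples were grouped by the tissue, diet, week and mouse number of their labels. Genes that reached 1 FPKM in 4 or more libraries were tested on log2(FPKM + 1), a scale that understates changes of low genes, by limma 3.58.1 (R 4.3.3) with trend and robust variances. Adjustment was by Benjamini-Hochberg over all genes of a comparison, at 0.05. HFD was compared with CD in the 8 livers of each week, and all 48 livers were fitted by group for the mean effect and the time tests. Relations used SciPy 1.17.1 and NumPy 2.4.6. The code was tested on simulated data. The members and lists were chosen with earlier results of these data known. Named were the 9 members, the 3 genes most alike to each (1 is not reported here), and listed genes called on average. Alternatives were a pseudocount of 0.1, no filter, median ratio scaling, no variance trend, one fit of all groups, a log2 fold change of at least 1, and each mouse left out.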

Additional observations from a re-analysis of the deposited data

Results flagged for a closer look

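Single mice stood apart from the other 3 of their group in 7 of the 108 groups of 4 tested (9 members in 12 groups), by the gap to the nearest mouse relative to the group's range, where chance flags about 1 in 20. Cyp7a1 was 5.76 FPKM in CD306 at week 12, against 30.8 to 35.9 FPKM in the other 3 mice, and 89.07 FPKM in HFD614 at week 24, against 9.08 to 17.1 FPKM. The latter mouse was also apart for Slc10a1, with 439 FPKM against 262 to 275 FPKM. Cyp27a1 was 261 FPKM in CD502 at week 20, against 232 to 237 FPKM. Cyp7b1 was 102.99 FPKM in HFD217 at week 8, against 33.3 to 41.5 FPKM. Abcb4 was 46.6 FPKM in CD304 at week 12, against 80.9 to 85.2 FPKM, and Nr0b2 was 47.9 FPKM in HFD511 at week 20, against 17.5 to 19.8 FPKM.

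Abcc3, a basolateral exporter of bile acids outside the 9 members, had an HFD effect that differed between weeks (limma, diet by week interaction, adjusted p = 0.022, and 0.0079 after median ratio scaling). Its log2 fold change was -0.66 at week 4, where CD mice had 39.0 ± 6.46 FPKM and HFD mice 24.6 ± 5.87 FPKM (SD, n = 4 each), and 0.81 at week 8, with 38.5 ± 6.89 and 67.8 ± 5.17 FPKM. The groups did not overlap in either week, and the share of all genes for which this held was not counted. By limma the adjusted p was 0.22 at week 4 and 0.0090 at week 8.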

How the results depend on the processing

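On the mean of the 6 weeks, 3 members were called under the pseudocount of 0.1, without the filter and without the variance trend, 5 under median ratio scaling, 0 with a log2 fold change of at least 1, and 3 to 4 with 1 mouse left out. The calls of Abcb4, Cyp27a1 and Cyp7b1 held in all 48 fits without 1 mouse. At week 8 the count of 2 became 1 without the filter, under the scaling, without the trend and with the fold criterion, and 1 to 3 with 1 mouse left out. At week 12 the scaling gave 1 instead of 0. At week 20 the count of 1 became 0 without the filter and with the fold criterion, and 0 to 2 with 1 mouse left out. Weeks 4, 16 and 24 gave 0 throughout. The interaction gave 0 to 1, early against late 0, and weeks on chow 2 to 3 with 1 mouse left out. By Pearson's r, passing member pairs numbered 8 under the scaling, which lost Cyp27a1 with Cyp7b1 and Cyp7b1 with Slc10a1, and 9 with the pseudocount of 0.1, and clock pairs 29 and 30. By Spearman's rho 12 member pairs and 28 clock pairs passed in the main setting, and passes by rho were not counted under the alternatives. No result that was called in either setting turned its direction. Except where the scaling or the fewer mice are the change itself, the cause was not tested. With 4 mice per group, SE on the log2 scale reached 1.07 for Cyp7a1, which limits what its weekly values can show. No paired analysis was possible because CD and HFD mice are different animals that share no numbers.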
